A study of Mus musculus with 12 samples.

Results

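A set of 505 autosomal promoters carried methylation in primordial germ cells (PGCs) at embryonic day 9.5 (E9.5) and little of it in embryonic stem cells (ESCs) or parthenogenetic ESCs (pESCs). Members were chosen by their measured levels. A promoter was taken when its methylation level, the share of CpG reads in which the cytosine was methylated, was at least 40% in both E9.5 PGC libraries and under 15% in all 4 libraries of ESCs and pESCs. The rule was applied to 17925 promoters of genes on chromosomes 1 to 19 with a level in all 12 libraries, so that members were 2.82% of them. The levels of ESCs, pESCs and E9.5 PGCs in this set are therefore descriptions of the choice and were not tested.

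The levels came from reduced representation bisulfite sequencing (RRBS), which cuts DNA at CCGG with MspI and reads the CpG sites near the cuts, in 6 groups of 2 libraries labelled C57BL6. The groups were a female ESC line, a pESC line, E9.5 PGCs, E12.5 PGCs, and PGC-like cells (PGCLCs) induced from either line (ESC-PGCLCs and pESC-PGCLCs). Per the study's methods, both kinds of line came from β-Actin-GFP mice and were kept on feeder cells, pESCs having been derived from oocytes activated without sperm, and PGCs came from female embryos. Both lines were moved to a medium with Mek and Gsk3 inhibitors before induction, then taken through an epiblast-like state for 2 days and then given BMP4, SCF, EGF and LIF for 4 days. PGCs and PGCLCs were sorted on surface proteins (SSEA1 with CD61, or for some PGCs SSEA1 alone) and no marker of cell identity was measured here, since the readout is DNA methylation. The study describes the libraries of a group as biological replicates, and the labels do not say which cultures or litters they came from. A level is an average over the cells of a library, and fewer methylated cells cannot be told apart from less methylation in each cell. The share of other cells in a sorted library was not measured here, so levels of PGCs and PGCLCs are those of the sorted cells.

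DNA methylation of a promoter is the addition of a methyl group to the cytosine of CpG sites near a gene start, and a densely methylated promoter is usually silent. In the mouse embryo, methylation is low in the blastocyst, is laid down by the enzymes Dnmt3a and Dnmt3b around implantation, and is lost again in PGCs as they migrate to and settle in the gonads. ESCs in culture can be held in a state of low methylation by inhibitors of the Mek and Gsk3 kinases. Genes used in germ cells and in the early embryo are a well-known class of promoters that gain methylation at implantation.

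Sequence near the start site is shown for 7 members that had a methylated CpG island and a known motif there. Motifs were searched on both strands of RefSeq promoters (250 bases before to 50 after a start site, GRCm38.p6), and a promoter within 500 bases of the annotated gene start was found for 199 of the 505 members. They are the E-box CACGTG, the longer TCACGTGA that contains it, the cyclic AMP response element TGACGTCA, and GCGGGAA, a core bound by E2F factors. Of the 15 members in lists of germline and 2-cell-stage genes, 8 had such a promoter and 1, Ddx4, held a motif, so the other sequences are those of members with a methylated island and were chosen after their values were seen. Each line gives 30 bases, with the motif in capitals, on the strand of the gene.
Ddx4, chr13:112652322-112652351 (-): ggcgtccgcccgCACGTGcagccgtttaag
Ddx4, chr13:112652428-112652457 (-): ccgtccatgggGCGGGAAgtcgcgcgccgc
Mcts2, chr2:152687045-152687074 (+): cagtggggtaatCACGTGaggatcagcgca
Ptchd3, chr11:121830173-121830202 (+): gggcgcctcgccCACGTGctcccaaccgtc
Ifi30, chr8:70766842-70766871 (-): atccaaaaacttCACGTGaccagacatgct
Hsf5, chr11:87617082-87617111 (+): gccaccacgcgGCGGGAActcgaggcccca
Csf2ra, chr19:61228492-61228521 (-): cccgcccccggTGACGTCAccgggccccac
Prr23a2, chr9:98856455-98856484 (+): tgaggtgtgatTGACGTCAgggtgtatccg

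Every motif above holds a CpG site, whose cytosine can be methylated, but levels are averages over a window or an island and no level was measured at a motif. The window shown for Ifi30 lies outside its methylated island. CACGTG stood in 9.55% of the 199 member promoters and in 10.3% of the 9392 autosomal promoters matched. TCACGTGA stood in 2.51% and 1.81%, TGACGTCA in 4.02% and 3.12%, and GCGGGAA in 5.53% and 8.52%. Members as a whole therefore held CACGTG at a share close to that of all promoters. Their shares were slightly higher for TCACGTGA and TGACGTCA and lower for GCGGGAA. The member sequences had a median of 13 CpG sites in 300 bases, against 21 in all matched promoters. None of these differences was tested, and a match marks letters in this window and not a bound factor. Among the 14 members with a methylated island and a RefSeq promoter, CACGTG stood in 4 (28.6%) and TCACGTGA in 2 (14.3%). TGACGTCA stood in 2 (14.3%) and GCGGGAA in 3 (21.4%). These shares were above those of all promoters, but they rest on few promoters and were not tested. In the windows of Mcts2 and Ifi30 the marked CACGTG lies within the longer TCACGTGA.

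Across the 505 members the level averaged 6.62% ± 0.347 (SD of 2 library means) in ESCs, 6.76% ± 0.888 in pESCs and 61.8% ± 0.0885 in E9.5 PGCs. In the groups that had no part in the choice it averaged 37.1% ± 0.477 at E12.5, 43.4% ± 0.162 for ESC-PGCLCs and 37.6% ± 0.109 for pESC-PGCLCs. Members in E12.5 PGCs and in both kinds of PGCLC thus lay between ESCs and E9.5 PGCs. Over all 17925 autosomal promoters the mean was 14.0% in each of the stem cell groups, 23.4% at E9.5, 15.2% at E12.5, 18.5% in ESC-PGCLCs and, for those of parthenogenetic origin, 17.1%.

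**Figure D1:**
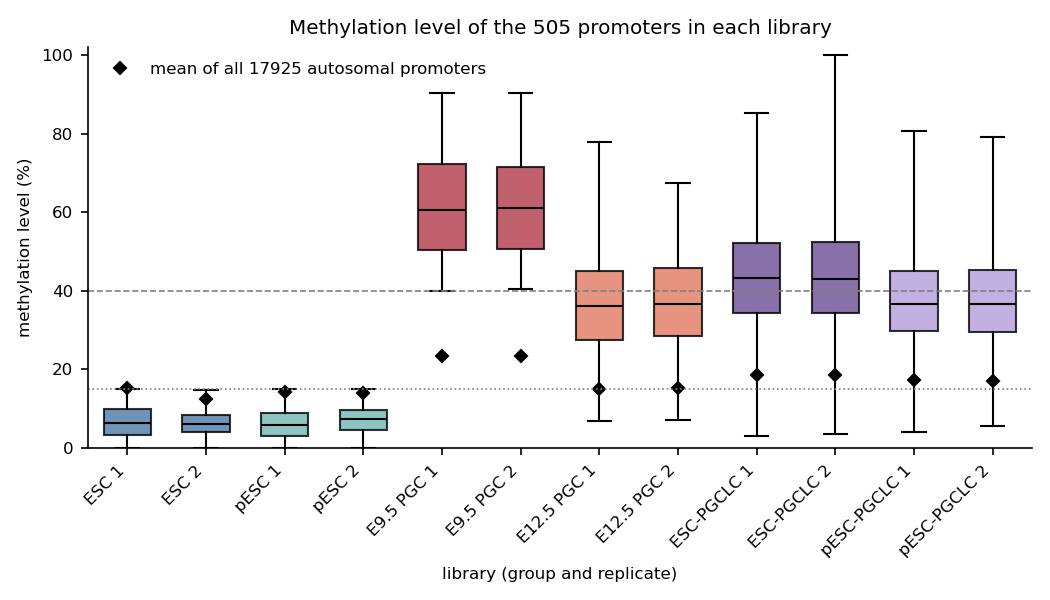
Methylation level (%, vertical axis) of the 505 promoters in each of the 12 libraries (horizontal axis); boxes span the quartiles with the median as a line, whiskers run from the lowest to the highest promoter, diamonds are the mean of all 17925 autosomal promoters, and the dashed and dotted lines mark the 40% and 15% limits of the choice. The medians lie at 36.1% and 36.8% in E12.5 PGCs, 43.2% and 43.1% in ESC-PGCLCs, and 36.7% in each pESC-PGCLC library.

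In E12.5 PGCs the members lay at a median of 61.2% of their own E9.5 PGC level, with the middle 50% of members between 53.4% and 66.9%. The level was lower at E12.5 than at E9.5 in 505 of 505 members, by a median of 23.7 percentage points, a direction that a choice of promoters high at E9.5 favours and that was not tested. It was also lower at 13888 of all 17925 autosomal promoters. Residual methylation of the sorted cells was general: 179 members remained at 40% or more in both E12.5 PGC libraries, and 7 were under 15% in both. Whether other cells in the sort added to it was not tested. At 503 members both E12.5 PGC libraries were above both ESC libraries, although the choice of low ESC levels favours that too. The same held for 31.8% of all autosomal promoters. Of the 505 members, 477 were at 15% or more in all 6 libraries of E12.5 PGCs and PGCLCs, and 140 were at 40% or more in all of them.

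Another set of promoters gives the scale. The 1847 autosomal promoters at 40% or more in every library of ESCs, pESCs and E9.5 PGCs had mean levels of 73.1% in E9.5 PGCs and 49.1% in E12.5 PGCs, and at E12.5 a median of 67.6% of the E9.5 level. In ESC-PGCLCs they kept a median of 84.5% of the E9.5 level and in pESC-PGCLCs 78.7%. For the members the same medians were 70.9% in ESC-PGCLCs, with pESC-PGCLCs at 61.4%. Both sets were chosen on E9.5 PGC levels, so these figures are descriptions.

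Among the gene lists examined, that of the 2-cell stage and early embryo had the highest share of members. Members were 5 of the 7 measured promoters of that list, 5 of 22 of a pluripotency list that shares 4 of those genes, and 2.82% of all autosomal promoters. The lists were drawn up with earlier results of these data known, so the counts are descriptions.

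Dppa5a, an RNA-binding protein of pluripotent cells, had the highest E9.5 level among these 5. Its promoter was at 82.98% and 82.3% in E9.5 PGCs against 2.65% and 2.76% in ESCs and 1.78% and 2.26% in pESCs. It was at 50.4% and 51.7% in E12.5 PGCs, with ESC-PGCLCs at 56.1% and 61.1% and pESC-PGCLCs at 51.9% and 47.8%. The 3 groups outside the choice all lay far above the stem cells and below E9.5 PGCs, an order that the choice favours. Neither kind of PGCLC was called different from E12.5 PGCs.

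Dppa3 (Stella), which guards the maternal genome against demethylation in the fertilised egg and marks early PGCs, was at 67.1% and 69.8% in E9.5 PGCs and 32.4% and 34.96% in E12.5 PGCs. Its ESC libraries were at 2.55% and 3.61% and its pESC libraries at 1.85% and 3.33%. ESC-PGCLCs, at 39.5% and 40.1%, lay above both E12.5 PGC libraries, and pESC-PGCLCs, at 28.1% and 24.8%, lay below both. None of the tested differences reached a call (limma adjusted p = 0.0715 for ESC-PGCLCs against E12.5 PGCs, 0.0618 for pESC-PGCLCs against E12.5 PGCs and 0.0986 between the PGCLCs).

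Zfp42 (Rex1), a zinc finger protein used as a marker of naive pluripotency, behaved alike in order. It was at 1.86% and 2.58% in ESCs, 65.4% and 63.8% in E9.5 PGCs and 30.7% and 30.9% in E12.5 PGCs, with ESC-PGCLCs at 41.1% and 37.4% and pESC-PGCLCs at 27.7% and 30.2%. Dppa2, which with Dppa4 helps to switch on 2-cell-stage genes, was at 70.5% and 69.1% in E9.5 PGCs and 47.1% and 48.1% in E12.5 PGCs, with ESC-PGCLCs at 53.9% and 49.6% and pESC-PGCLCs at 45.1% and 42.7%. Pramel1, of the Prame family, was at 72.9% and 71.1% in E9.5 PGCs and 46.5% and 47.6% in E12.5 PGCs, with ESC-PGCLCs at 55.2% and 43.3% and pESC-PGCLCs at 38.5% and 42.6%. For Dppa2 the ranges of ESC-PGCLCs and E12.5 PGCs did not overlap, whereas for Pramel1 they did, and neither was called.

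Germline genes outside that list gave fewer members. Members were 4 of 29 measured meiosis genes, 2 of 20 genes of the piRNA pathway and germ granules, 2 of 31 spermatogenesis genes and 2 of 14 oocyte genes.

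Ddx4 (Vasa), an RNA helicase of germ granules, was at 13.01% and 9.91% in ESCs and 72.3% and 72.9% in E9.5 PGCs. Its E12.5 PGC, ESC-PGCLC and pESC-PGCLC libraries lay close together, between 41.6% and 47.9%. Rnf17, a Tudor domain protein of germ granules, was at 61.3% and 57.4% in E9.5 PGCs and 40.9% and 41.3% in E12.5 PGCs, with ESC-PGCLCs at 36.5% and 43.1% and pESC-PGCLCs at 37.01% and 36.98%. In each of these 2 genes the E12.5 PGC level lay between the stem cells and E9.5 PGCs in every library. The choice favours that order, and it does not set these genes apart. Both E12.5 PGC libraries lay below both E9.5 PGC libraries in 502 of 505 members and above both ESC libraries in 503. The first also held for 10381 of all 17925 autosomal promoters. It held for 1831 of the 1847 promoters at 40% or more in every library of ESCs, pESCs and E9.5 PGCs, so it is not particular to members.

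Among meiosis genes, Msh4, a MutS homologue needed for crossing over, was at 2.71% and 2.21% in ESCs, 69.8% and 73.5% in E9.5 PGCs and 33.9% and 34.2% in E12.5 PGCs. Its PGCLC libraries ranged from 32.4% to 38.4%, around the E12.5 PGC values. Sohlh2, a helix-loop-helix factor of early germ cell differentiation, was at 80.7% and 84.97% in E9.5 PGCs and 48.2% and 63.2% in E12.5 PGCs, whose replicates differed by more than in most members. Mcmdc2, which acts in meiotic recombination, was at 52.7% and 42.5% in E9.5 PGCs and 31.4% and 28.1% in E12.5 PGCs. Hormad2, a protein of the meiotic chromosome axis, was at 48.2% and 44.8% in E9.5 PGCs and 27.3% and 24.9% in E12.5 PGCs. These 2 had the lowest E9.5 levels of the 4 meiosis genes and also the lowest at E12.5.

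In the oocyte list, Tcl1, a cofactor of the Akt kinases that also belongs to the pluripotency list, was at 74.2% and 72.2% in E9.5 PGCs and 52.6% and 50.7% in E12.5 PGCs, with ESC-PGCLCs at 59.3% and 51.8% and pESC-PGCLCs at 55.7% and 54.3%. Bcl2l10, a Bcl2 family member of the oocyte, was at 69.1% and 73.4% in E9.5 PGCs and 38.5% and 50.9% in E12.5 PGCs. In the sperm list, Dkkl1, a protein of the acrosome, was at 48.1% and 45.9% in E9.5 PGCs, and its 6 libraries of E12.5 PGCs and PGCLCs lay between 26.8% and 29.99%. Acrbp, which binds proacrosin, differed from the other listed members: it was at 55% and 42.1% in E9.5 PGCs and 20% and 35% in E12.5 PGCs but at 11.9% and 13.2% in ESC-PGCLCs, with pESC-PGCLCs at 9.71% and 7.52%. The E12.5 PGC replicates of Acrbp were far apart. All 4 of its PGCLC libraries lay below both E12.5 PGC libraries, and the pESC-PGCLC level was called lower (-18.9 points, limma adjusted p = 0.0380). It was the only call among the 20 listed members in the 3 tested comparisons, and it is near the threshold. The call held in 3 of 15 alternatives, and without E12.5 PGC replicate 1 or 2 the difference was -26.4 or -11.4 points and was not called.

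**Figure D2:**
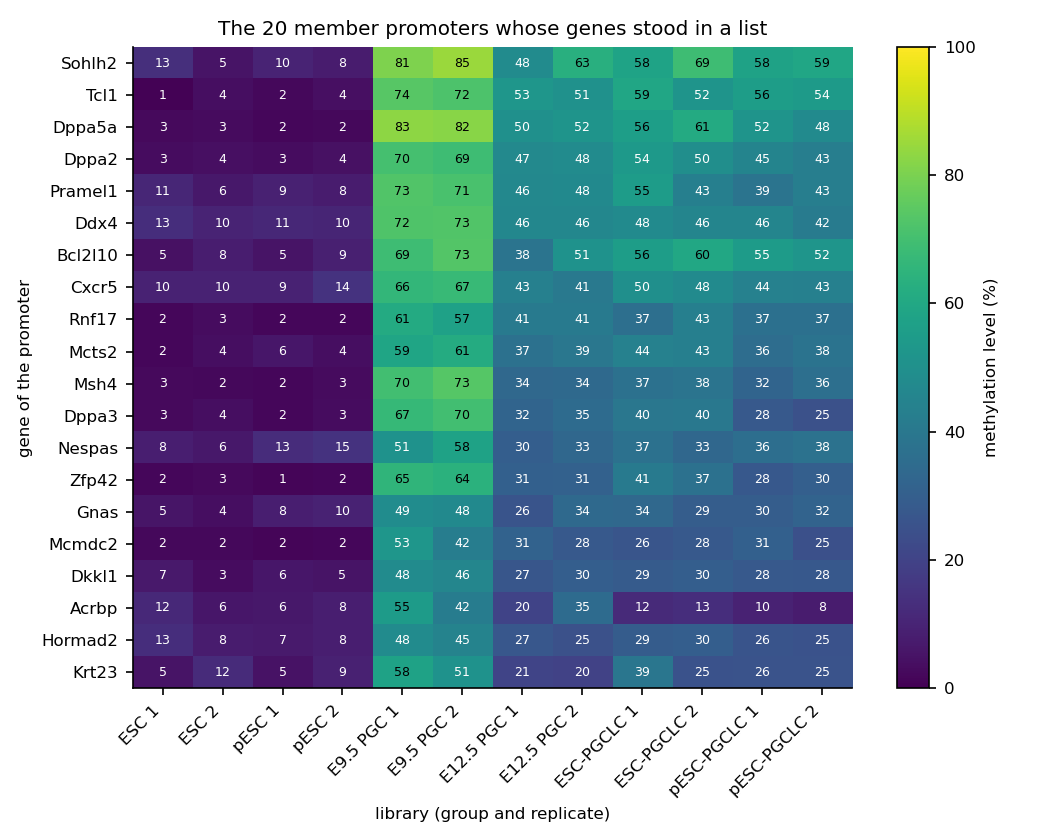
Methylation level (%, colour and printed value) of the 20 members whose genes stood in a gene list, in each of the 12 libraries; genes are ordered by their mean in E12.5 PGCs. E12.5 PGC and PGCLC columns lie between the dark stem cell columns and the bright E9.5 PGC columns, and Acrbp is dark in the PGCLC columns.

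Imprinted genes gave 3 members of 20 measured on a list of maternally imprinted genes, and 0 of 13 on a list of paternally imprinted genes. All 3 lie on chromosome 2. Mcts2, an imprinted gene inside the gene H13 that arose by retrotransposition, was at 1.66% and 3.76% in ESCs and 6.13% and 3.76% in pESCs, against 58.8% and 61.5% in E9.5 PGCs and then 37.2% and 39.5% in E12.5 PGCs. A parthenogenetic cell holds only maternal genomes, on which the mark of Mcts2 is normally laid down, and its level in the pESC libraries was near that of ESCs.

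Nespas, the antisense transcript of the Gnas locus, was at 12.7% and 14.8% in pESCs, 51.1% and 57.5% in E9.5 PGCs and 30.04% and 33.5% in E12.5 PGCs over its promoter as a whole. Its CpG island had another pattern, at 21.5% and 31.9% in ESCs, 62.96% and 59.4% in pESCs, 40.7% and 29.4% in ESC-PGCLCs, with pESC-PGCLCs at 57.7% and 49.9%. The island was higher in both pESC libraries than in both ESC libraries, although the promoter level met the choice in all 4. Gnas, which encodes the stimulatory G protein subunit, was at 48.7% and 47.5% in E9.5 PGCs and 26.1% and 34.1% in E12.5 PGCs.

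Lists of other tissues gave single members. Cxcr5, a chemokine receptor of B cells, was 1 of 24 measured blood and immune genes, at 66.2% and 67.4% in E9.5 PGCs and 43.4% and 40.5% in E12.5 PGCs. Krt23 was 1 of 25 keratin and epithelium genes, at 57.5% and 51.2% in E9.5 PGCs and 20.6% and 19.6% in E12.5 PGCs. No member was found among 13 trophoblast genes.

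By gene type, 255 members were promoters of protein-coding genes (50.5%, against 69.9% of all autosomal promoters), 126 of long non-coding or unclassified transcripts, 80 of pseudogenes (15.8% against 7.01%), 20 of miRNAs and 24 of other small RNAs. Members of all 5 types had similar means in E12.5 PGCs, from 36.2% in protein-coding genes to 41.4% in pseudogenes. In ESC-PGCLCs the means ran from 41.5% in protein-coding genes to 46.5% in miRNAs. Members were not all separate stretches of DNA: they fell into 472 loci with no shared bases in the windows, 61 members lay in 28 loci of 2 to 5, and 20 had exactly the levels of another member in all 12 libraries. The largest locus held Rpl13a, a ribosomal protein gene, with Snord33, Snord34, Snord35a and Mir5121, small RNAs of the same stretch.

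Promoters were read as the 2000 bases before the gene start, the stretch in which sites of MspI went with a deposited promoter level. In these windows members had a median of 33 CpG sites, against 39 in all autosomal promoters and 25 in the 1847 promoters methylated in all 6 libraries. The gap to all promoters lay close to the gene start, where the last 500 bases held a median of 12 CpG sites in members, 18 in all promoters and 7 in the 1847. The rest of the window held medians of 20, 19 and 17. The ratio of observed to expected CpG sites had medians of 0.296, 0.351 and 0.233, so members were intermediate in CpG content between the 2 reference sets.

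A CpG island lay in or across the window of 140 members (27.7%), against 58.3% of all autosomal promoters and 6.66% of the 1847. An island level in every library was given for 123 of these members, and in E9.5 PGCs the islands took either of a pair of states. The island was at 40% or more in 41 members, under 15% in 78, and in between in 4. The level of an island covers all of it, including the part past the gene start, whereas the promoter level was taken to cover the inferred window. These classes were set by the island's own level in E9.5 PGCs, so their E9.5 island means describe the sorting and were not tested.

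In the 78 members with an unmethylated island, 69 of them protein coding, the island averaged 1.80% in ESCs, 2.45% in E9.5 PGCs and 2.20% in E12.5 PGCs, with ESC-PGCLCs at 2.35%. The promoters of the same genes averaged 56.6% at E9.5, 34.4% at E12.5 and 39.8% in ESC-PGCLCs. Mbd3, a subunit of the NuRD chromatin complex and among the highest protein-coding members in both E12.5 PGCs and PGCLCs, shows this: its promoter was at 88.2% and 89.97% in E9.5 PGCs, and its island at 1.17% and 1.65%. The island of Mbd3 stayed under 2% in all 12 libraries.

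In the 41 members with a methylated island the mean of the islands went with that of the promoters, though not in every member (Nespas and Gm10169 differed), averaging 7.01% in ESCs, 64.4% in E9.5 PGCs and 41.1% in E12.5 PGCs, with ESC-PGCLCs at 45.3% and pESC-PGCLCs at 39.4%. Of these members 14 were protein coding. Ddx4 was among them, with its island, which overlaps the end of the window and lies mostly past the gene start, at 69.9% and 71.2% in E9.5 PGCs and 45.5% and 46.3% in E12.5 PGCs. Hsf5, a heat shock factor of spermatocytes whose sequence is printed above, was at 72.1% and 75.4% in E9.5 PGCs and 53.9% and 57.2% in E12.5 PGCs, and its PGCLC libraries ranged from 52.3% to 57.7%.

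**Figure D3:**
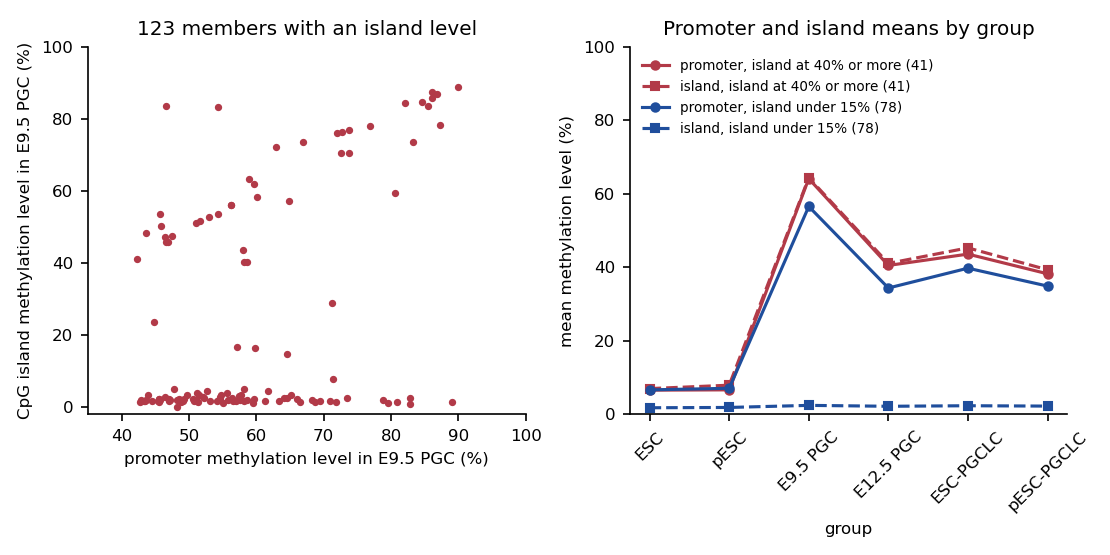
Left, methylation level (%) in E9.5 PGCs of the CpG island (vertical axis) against that of the promoter (horizontal axis) for the 123 members with an island level in all libraries; right, mean promoter level (solid) and island level (dashed) by group for the 41 members whose island was at 40% or more (red) and the 78 whose island was under 15% (blue) in E9.5 PGCs. Most islands lie near 2% or at 40% or more, and the blue dashed line stays near 2% in all 6 groups. Members were sorted by the island level in E9.5 PGCs, so the dashed values of that group describe the sorting.

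Other parts of the member genes were measured as well as the promoter. The 5′ UTR of Rnf17 and the exons of Msh4 and Apol6 had the promoter's own level in all 12 libraries, which the choice had used. The 5′ UTR of 133 members averaged 5.06% in ESCs, 27.5% in E9.5 PGCs and 16.5% in E12.5 PGCs. In E9.5 PGCs 46 of the 133 were at 40% or more and 73 under 15% in both libraries. The 5′ UTRs of all 9600 genes measured averaged 4.18%, 6.61% and 4.68%. The full rule was also met by the 5′ UTR of 37 of the 133 members, Rnf17 among them, and of 80 of the 9600. In Msh4 the 5′ UTR was at 0.725% and 1.58% in ESCs, 63.4% and 69.8% in E9.5 PGCs and 40.4% and 33.7% in E12.5 PGCs. Its likeness to the promoter is not independent, since the exons of Msh4, which take in the 5′ UTR, had the promoter's own level. In Mbd3 the 5′ UTR was at or under 3.30% in every library.

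Introns and 3′ UTRs were tested for E12.5 against E9.5 PGCs. The introns of Trim13, D830026I12Rik and Gm16120 and the 3′ UTR of Apol6 had the promoter's own level in all 12 libraries, which the choice had used, and counts are given with and without them. Introns of 193 of the 257 member genes measured in the 8 libraries of the fit were called lower at E12.5 (75.1%), and none higher, with a median difference of -21.1 points. In the same fit 49.6% of all 137202 features were called lower, and 64.1% of the introns of all autosomal genes. The 3′ UTR was called lower in 51 of 55 member genes (92.7%), against 81.5% of all 3′ UTRs. Without the parts equal to a promoter, 190 of 254 introns and 50 of 54 3′ UTRs were called lower. Introns and promoters of a gene are neighbours and some share sites, so the member genes' shares are not independent of the choice. With every library centred on its own median, 45 introns, 43 of them lower, and 19 3′ UTRs were called, since most features were lower at E12.5, by a median of 11.5 points.

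Of the introns of 15 listed members 12 were called lower, a share near the 75.1% of all member introns. The share was 64.1% for the introns of all autosomal genes. That of Dppa3 was lower by 34.99 points (-34.99, limma adjusted p = 8.86e-05) and that of Sohlh2 by 27.2 points (-27.2, limma adjusted p = 7.47e-05), whereas Ddx4, with a difference of -22.9 points, was not called (limma adjusted p = 0.246). Introns were not methylated in PGCs alone. In the 255 member genes with an intron level in all 12 libraries, introns averaged 22.6% in ESCs and 49.5% in E9.5 PGCs. In both ESC libraries 36 of the 255 were at 40% or more and 101 were under 15%. The intron of Tcl1 was at 74.9% and 60.9% in ESCs and 79.3% and 79.3% in E9.5 PGCs, beside a promoter at 0.647% and 3.78% in ESCs.

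**Figure D4:**
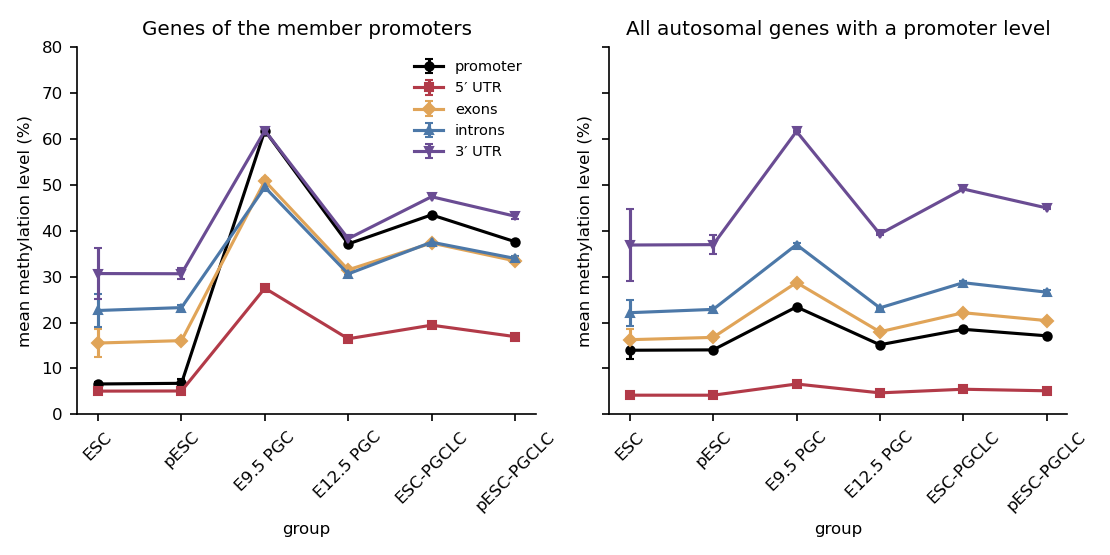
Mean methylation level (%, vertical axis) of promoters, 5′ UTRs, exons, introns and 3′ UTRs by group for the genes of the members (left) and for all autosomal genes with a promoter level (right); error bars are the SD of 2 library means. Member promoters run from 6.62% in ESCs to 61.8% in E9.5 PGCs, whereas 3′ UTRs of the same genes start at 30.7% in ESCs.

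PGCLCs were then set against E12.5 PGCs, member by member, to ask where induction in culture ended relative to the gonadal stage. A member was called when the limma adjusted p, over all 137202 features of the fit, was under 0.05 and its group means were 10 points or more apart. Both comparisons use the same E12.5 PGC libraries.

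In ESC-PGCLCs 118 of 505 members were called higher than in E12.5 PGCs (23.4%) and 13 lower (2.57%). Of all features tested 22.2% were called higher and 0.523% lower, so the share of members called higher was near that of all features. Among all 17925 autosomal promoters 13.2% were called higher and 0.502% lower. In the 1847 promoters methylated in every library of ESCs, pESCs and E9.5 PGCs the shares were 61.1% and 0.433%. The median member was 6.33 points higher in ESC-PGCLCs, against 2.97 points for all features and 12.3 points for the 1847. With each library centred on its own median the split of calls became 35 higher and 27 lower, and the median member was 1.15 points lower. On the log2 odds scale ESC-PGCLCs exceeded E12.5 PGCs by a median of 0.34 over all features and 0.38 over members.

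Among the called rises, C1qtnf3, a secreted protein of the C1q and TNF family, was at 55.6% and 57.2% in E9.5 PGCs and had nearly returned to the stem cell level in E12.5 PGCs, at 6.91% and 8.65% against 8.59% and 6.20% in ESCs. It was at 46.2% and 49.03% in ESC-PGCLCs, 39.8 points higher than in E12.5 PGCs (log2 odds 3.28, SE 0.145, adjusted p = 0.00119). Its pESC-PGCLC libraries, at 24.7% and 27.1%, lay between. Exph5, an effector of the Rab27 small GTPases, was at 7.77% and 12.8% in E12.5 PGCs and 23.2% and 26.6% in ESC-PGCLCs and was called higher by 14.6 points (adjusted p = 0.0196).

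The largest rise was that of the antisense transcript Gm11724, from 23.8% and 24.7% in E12.5 PGCs to 65.6% and 81.5% in ESC-PGCLCs (49.2 points, adjusted p = 0.00414). BC050972 and the pseudogene Ppp1r2-ps4, which share sites and have the same values, were at 24.6% and 17.3% in E12.5 PGCs and 53.7% and 67.3% in ESC-PGCLCs. For all of these genes the ESC-PGCLC and E12.5 PGC libraries did not overlap.

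The 118 rises ran from 10.1 to 49.2 points, and the 13 falls from -13.8 to -53.2 points. Spsb3, an adaptor with a SOCS box, and Nubp2, of iron-sulphur cluster assembly, have overlapping windows on chromosome 17 and were the highest protein-coding members in E12.5 PGCs. Spsb3 was at 90.4% and 78.6% in E9.5 PGCs and 74.3% and 64.3% in E12.5 PGCs, but at 2.98% and 29.2% in ESC-PGCLCs, with pESC-PGCLCs at 10.5% and 18.3%. Nubp2 was at 74.3% and 60.7% in E12.5 PGCs, with ESC-PGCLCs at 3.73% and 35% and pESC-PGCLCs at 14.3% and 23.4%. The ESC-PGCLC replicates of both genes were far apart. The call of Spsb3 had an SE of 1.09 on the log2 odds scale (adjusted p = 0.0314), and the equal fall in pESC-PGCLCs was not called (-54.9 points, adjusted p = 0.0778).

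Trim17, a ubiquitin ligase, was at 41.5% and 44.9% in E12.5 PGCs, with ESC-PGCLCs at 11.2% and 9.13% and pESC-PGCLCs at 12.7% and 10.04%. It was called lower by 33.0 points in ESC-PGCLCs (adjusted p = 0.00172) and by 31.8 points in pESC-PGCLCs (adjusted p = 0.00586). Gm21863, a predicted coding gene, was at 71.1% and 71.3% in E9.5 PGCs and 58.6% and 39.2% in E12.5 PGCs, with ESC-PGCLCs at 4.32% and 4.43% and pESC-PGCLCs at 4.04% and 5.56%. In both genes all 4 PGCLC libraries lay under every E12.5 PGC library. In ESCs Trim17 was at 3.02% and 2.62% and Gm21863 at 1.83% and 2.14%, so that PGCLCs lay above ESCs in both genes, by more in Trim17.

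Few members were low in PGCLCs. All 4 PGCLC libraries were under 15% at 5 members in 4 loci: Trim17, Gm21863, Acrbp, and the overlapping pseudogenes Gm13736 and Olfr1127-ps1. None of the 5 was under 15% in both E12.5 PGC libraries. Conversely the 7 members under 15% in both E12.5 PGC libraries, which were C1qtnf3, Exph5, Gm46419, Gm26724, Gm13179, Gm16120 and the small RNA gene Gm22328, had PGCLC libraries of 15.3% to 51.5%. Both groups were chosen by these values and are given as descriptions.

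Gm10169, a processed pseudogene on chromosome 7, had unlike levels in its promoter and its island. Its promoter was at 62.96% and 60.6% in E12.5 PGCs, with ESC-PGCLCs at 14.3% and 10.7% and pESC-PGCLCs at 18.2% and 18.02%, called lower in both (adjusted p = 0.00119 and 0.00481). Its CpG island, which overlaps only the end of the window next to the gene start, was at 48.02% and 49.02% in E12.5 PGCs, with ESC-PGCLCs at 51.1% and 56.5% and pESC-PGCLCs at 40.9% and 48.003%. Pseudogene reads can be shared with parent copies, so this value is uncertain.

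In pESC-PGCLCs 25 members were called higher than in E12.5 PGCs (4.95%) and 17 lower (3.37%). The backgrounds were 6.81% and 0.287% of all features. The calls rested on the replicates: without pESC-PGCLC replicate 1 there were 0 calls, without replicate 2 there were 5, and without E12.5 PGC replicate 1 or 2 there were 7 and 13. Without either E9.5 PGC library, which adds only to the estimate of spread, there were 26. In the fit of all 8 libraries 141 members had an unadjusted p under 0.05 (27.9%, against 30.8% of all features). The median member differed by 0.659 points, against 1.30 points for all features and 8.27 points for the 1847 promoters. Centring gave 3 higher and 14 lower, with the median member 4.48 points lower.

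Fgf23, the hormone of phosphate balance, was the protein-coding member with the largest called rise in pESC-PGCLCs, from 48.9% and 42.2% in E12.5 PGCs to 62.4% and 68.6% (adjusted p = 0.04997). Gm47542 went from 28.99% and 37.8% to 64.7% and 56.5% (27.2 points, adjusted p = 0.0242), and Gm26724, which was among the lowest members in E12.5 PGCs, from 13.2% and 12.1% to 30.7% and 31.4%. Gm43676 went from 22.8% and 25.7% to 44.1% and 40.5%. The call of Fgf23 held in 4 of 15 alternatives, that of Gm47542 in 7, and those of Gm26724 and Gm43676 in 9 each. Falls were led by Gm21863 and Gm10169, and included the pseudogenes Gm3052, at 68.8% and 66.7% in E12.5 PGCs and 38.6% and 37.6% in pESC-PGCLCs, and Gm12001, which went from 59.4% and 59.6% to 33.2% and 29.4%. Bub1b, a kinase of the spindle checkpoint, was one of the highest members in E12.5 PGCs. It was called lower in pESC-PGCLCs, from 66.7% and 67.2% to 52.5% and 55.9% (limma adjusted p = 0.0415). Mtus1, a microtubule-associated protein, was also called lower, from 26.02% and 25.2% to 13.4% and 15.1% (limma adjusted p = 0.0141). The call of Bub1b held in 4 of 15 alternatives, against 10 for Mtus1, 12 for Gm3052 and 13 for Gm12001.

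**Figure D5:**
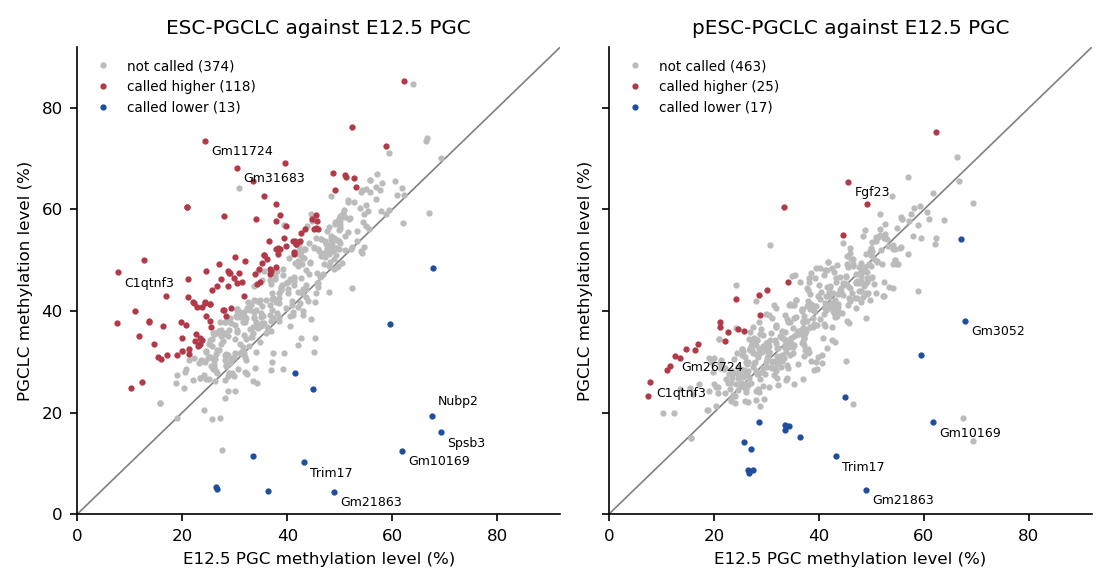
Mean methylation level (%) of each of the 505 members in ESC-PGCLCs (left) and pESC-PGCLCs (right) on the vertical axis against E12.5 PGCs on the horizontal axis; the line marks equal levels, and colour marks members called higher (red) or lower (blue) with limma. On the left 118 members lie above the line as calls and 13 below it, on the right 25 and 17, and Trim17, Gm21863 and Gm10169 lie far below the line in both panels.

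The 2 kinds of PGCLC were also compared with each other, which addresses whether PGCLCs of parthenogenetic origin differ from the others. The groups come from different cell lines, so origin, line and induction cannot be told apart. The median member was 5.48 points lower in pESC-PGCLCs than in ESC-PGCLCs, and 465 of 505 members were lower, 360 of the 505 (71.3%) with no overlap between libraries. Lower levels with no overlap were also found at 34.9% of all autosomal promoters and 65.9% of the 1847. Over all features the median difference was -0.953 points, and over the 1847 promoters it was -4.02 points. Single members rarely passed the test: 0 were called higher and 1 lower, against backgrounds of 0.0445% and 0.0503%, while 224 had an unadjusted p under 0.05 (44.4%, against 19.4% of all features and 31.8% of the 1847). The count depended on the scale, with 22 calls at an offset of 0.1 in the log2 odds and 28 on untransformed levels. It was 3 without ESC-PGCLC replicate 1 and 0 without any other single library.

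The member called was Gm31683, an antisense transcript gene on chromosome 13. It was at 50.9% and 51.5% in E9.5 PGCs and 29.2% and 31.5% in E12.5 PGCs, with ESC-PGCLCs at 65.6% and 70.9% and pESC-PGCLCs at 35.8% and 32.1%. ESC-PGCLCs were above both E9.5 PGC libraries, and pESC-PGCLCs were 34.3 points lower (-34.3 points, log2 odds -2.02, SE 0.155, limma adjusted p = 0.0310).

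Across the members, the order of levels was shared among the groups outside the choice. The 505 members share libraries and in part loci and are not independent replicates. Over them the group means of ESC-PGCLCs and pESC-PGCLCs correlated with Pearson's r of 0.911. Group means of E12.5 PGCs correlated with those of ESC-PGCLCs at 0.643 and with those of pESC-PGCLCs at 0.733. Between the single replicate libraries of 1 group r ran from 0.871 to 0.902. Means of 2 libraries vary less than single libraries, so these are not like measures.

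At the edge of the choice, the members nearest the 40% limit were Gm3822, Gm46419 and Vwa3a, whose lower E9.5 PGC library was at the limit itself, at 40.1% and at 40.2%, and the promoters just outside it were Tmem231, Brsk1 and Il34, at 39.9%, 39.6% and 39.6%. Nearest the 15% limit were Zfp469, Rfx5 and Gm23960, whose highest stem cell library was at 14.99%, 14.94% and 14.94%, with Gm12866 just outside at 15.03% and AY702103 and AL592112.1 at the limit itself. Lower protein-coding members in E12.5 PGCs, beside C1qtnf3 and Exph5, were Ston1 at 15.4% and 11.8%, Cd180 at 12.5% and 16.9% and Zfp248 at 15.1% and 15.7%. The highest protein-coding members in PGCLCs were Irgq, Mbd3, Suclg2, Rlbp1 and B4galt4, with means over the 4 libraries of 71.3%, 69.9%, 65.9%, 65.3% and 62.4%. Irgq varied most among them, at 69.2% and 100.0% in ESC-PGCLCs, with pESC-PGCLCs at 80.6% and 35.3%.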

How the data were processed

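Methylation levels of promoters, gene parts, CpG islands and other features were taken from 12 RRBS libraries. The authors aligned reads with Bismark 0.16.3 and Bowtie2 (mm10 in the submitters' processing notes), kept unique best alignments, corrected for non-conversion, and deposited each level as a fraction from 0 to 1, which is printed here in percent. The promoter definition and any coverage minimum are not given in the sources used here, and no read counts were used, so the depth behind a level is unknown and no interval is given. Promoters were placed in the 2000 bases before the gene start because MspI sites there went with a deposited level more often than sites elsewhere. That window is an inference and may not hold for every gene.

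Levels were moved to log2 odds with an offset of 0.01 and tested with limma 3.58.1 (R 4.3.3) over the 8 germ cell and PGCLC libraries and all 137202 features, with Benjamini-Hochberg adjustment. A call needed an adjusted p under 0.05 and 10 points between means. On simulated levels 176 of 200 features shifted by 2 log2 odds, and 194 of 200 shifted by 4, were recovered. The shifted features all had intermediate levels. The median member differed by 0.38 log2 odds between ESC-PGCLCs and E12.5 PGCs, and recovery of differences of that size was not simulated. Alternatives are listed in the closing section. The members and gene lists were chosen with earlier results of these data known. Named genes were the listed members, the 5 highest and 5 lowest protein-coding members in E12.5 PGCs and in PGCLCs, up to 5 rises and falls per comparison, and the 3 promoters on each side of each limit. 1 member with a motif is not reported here.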

Additional observations from a re-analysis of the deposited data

Results flagged for a closer look

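Gm31683, an antisense transcript gene on chromosome 13, was picked out because its level differed between the 2 kinds of PGCLC by a test of that difference. ESCs and pESCs were not in the fit, so whether the effect of induction differed was not tested. Its promoter was 34.3 points lower in pESC-PGCLCs than in ESC-PGCLCs (-34.3 points, limma adjusted p = 0.0310), and the libraries of the 2 groups did not overlap. The call held in 7 of 15 alternatives and was lost in 8. Replicates of 2 libraries are too few for a test of single outlying libraries.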

How the results depend on the processing

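Of 37 called results of named members, tried under 15 alternatives each, 430 of 555 kept their call, 125 lost it and 0 changed direction. For ESC-PGCLCs against E12.5 PGCs, the 131 calls became 78 in a fit of all 12 libraries, 62 with each library centred on its median and 210 with no minimum difference, and 99 to 128 when 1 library was left out. For pESC-PGCLCs the 42 calls became 9 and 17 under the first 2 of these, and 0 to 37 with 1 library left out. Between the PGCLCs the 1 call became 22 with an offset of 0.1, 28 on untransformed levels, and 0 to 3 with 1 library left out. A group left with 1 library was assumed to vary like the others, whose spread the fit pools. Among the 15 alternatives for named members, dropping the minimum difference only loosens the rule. Its 37 kept calls of 37 were therefore fixed in advance. Leaving out a library of a group outside a comparison changes only the estimate of spread. Centring left 45 introns and 19 3′ UTRs called, since it removes the loss shared by most features, and leaving out 1 library gave 184 to 194 and 48 to 51. Leaving out parts equal to the promoter, chosen after seeing the data, gave 190 and 50.

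With limits of 50% and 10% there were 207 members, averaging 41.5% at E12.5, 47.5% for ESC-PGCLCs and 41.03% for pESC-PGCLCs. With limits of 30% and 20% there were 967, averaging 32.6%, 38.6% and 33.7%. Members whose replicates differed by at most 10 points averaged 36.5%, 43.1% and 37.4%. The median over members was 42.4% for ESC-PGCLCs and 36.6% for pESC-PGCLCs. With 1 member per locus, an alternative chosen after seeing the data, the means were 43.6% and 37.8%. Leaving out 1 library moved the means to 36.8% to 37.5%, 43.3% to 43.6% and 37.5% to 37.7%. The causes of these shifts were not tested.

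Replicate numbers did not pair the libraries, since same-numbered deviations correlated at -0.0258, -0.00936 and 0.0592 in the 3 comparisons. A fit with the replicate number as a block gave 126, 32 and 0 calls. The depth behind each level is unknown, and 2 libraries per group limit the precision.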
